A study of Arabidopsis thaliana with 8 samples.

Results

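The regions described here are the chromosome-arm sites of H2B-GFP enrichment whose strongest point lay in no protein-coding gene. They were chosen by position from the longer H2B list, that of replicate 2: intervals on chromosomes 1 to 5, more than 3 Mb from an approximate centromere midpoint and more than 500 kb from a chromosome end, with the summit (the highest point of a called peak) outside every annotated protein-coding gene. The rule found 467 peaks among the 7365 arm peaks and 8608 nuclear peaks of that list, or 6.34% of the arm peaks (95% Wilson interval 5.81 to 6.92). The other 6898 arm peaks, with a summit in a protein-coding gene, served for comparison.

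Chromatin was pulled down with a GFP-binding resin from whole Arabidopsis thaliana seedlings 7 days after germination, a mixture of all seedling tissues. The line was Col-0 carrying p35S::AtH2B-GFP, in which the viral 35S promoter drives the tagged histone, and the plant's own untagged H2B was present as well. The other line of the series, gbpl3-5 with pAtGBPL3::AtGBPL3genomic-GFP, expresses a tagged GTPase from its own promoter in the mutant background and is used below for 1 overlap only. Each pulldown had 2 replicates; the inputs were not analysed here, and the labels do not say whether replicates were separate cultures, so differences between them may be technical.

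H2B is a core histone, part of the nucleosome around which nuclear DNA is wrapped, and is found at genes and silent sequences alike. Arms of Arabidopsis chromosomes are gene-rich, with short spaces between genes. Pseudogenes are gene-like sequences that no longer encode a working protein, and in plants many of them derive from transposable elements, which are usually kept silent by DNA methylation and compact nucleosomes. Long non-coding RNA genes are transcribed without encoding a protein.

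Of the 467 regions, 253 had their summit in a gene flank, up to 1 kb to either side of an annotated gene ( 54.2%, Wilson interval 49.6 to 58.6). A further 97 lay in pseudogenes (20.8%, 17.3 to 24.7), 73 were intergenic, more than 1 kb from any gene (15.6%, 12.6 to 19.2), and 44 lay in non-coding RNA genes (9.42%, 7.09 to 12.4). These classes take up unequal space in the arms. Protein-coding genes covered 64.7% of the arm sequence, against 23.6% for flanks, 8.07% for intergenic space, 2.28% for pseudogenes and 1.37% for non-coding RNA genes. Per Mb of its own class, replicate 2 had 50.5 peaks in pseudogenes, 38.3 in non-coding RNA genes, 12.8 in flanks and 10.7 in intergenic space, against 127 in protein-coding genes. In replicate 1, a list of 1128 arm peaks, the densities were 20.3 in pseudogenes, 3.48 in non-coding RNA genes, 4.44 in flanks and 3.39 in intergenic space, against 17.9 in protein-coding genes. Pseudogenes thus had a lower density than protein-coding genes in replicate 2 and a slightly higher one in replicate 1. These densities are descriptions of 2 lists and were not tested.

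Replicate 1, which had no part in choosing the regions, held a peak at 108 of the 467 (23.1%, Wilson interval 19.5 to 27.2; overlap of at least 1 bp). Of the arm peaks in protein-coding genes 574 of 6898 recurred (8.32%, 7.69 to 9.0), and of all arm peaks 9.26%. The odds of recurring were 3.31 times higher outside protein-coding genes (exact 95% interval 2.60 to 4.19, Fisher's exact p = 1.77e-20, 2-sided). The difference had the same direction on each of the 5 chromosomes. The share outside protein-coding genes ran between 17.6% (13 of 74 on chromosome 2) and 27.9% (17 of 61 on chromosome 4), and the share in protein-coding genes between 7.21% (chromosome 1) and 9.46% (chromosome 5). Seen from the other list, 154 arm peaks of replicate 1 lay outside protein-coding genes, and 116 of them overlapped a replicate 2 peak (75.3%), against 582 of 974 in protein-coding genes (59.8%) and 61.9% of all its arm peaks (odds ratio 2.05, exact interval 1.38 to 3.12, Fisher's exact p = 1.71e-04, 2-sided). Replicate 1 had 154 arm peaks outside protein-coding genes for the 467 of replicate 2, but 974 in them for the 6898. A larger share of the 467 could therefore recur, and the part of this in the odds ratio of 3.31 was not tested. Peaks of a list are not replicates and neighbours are not independent, so each p describes these 2 libraries only.

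**Figure D1:**
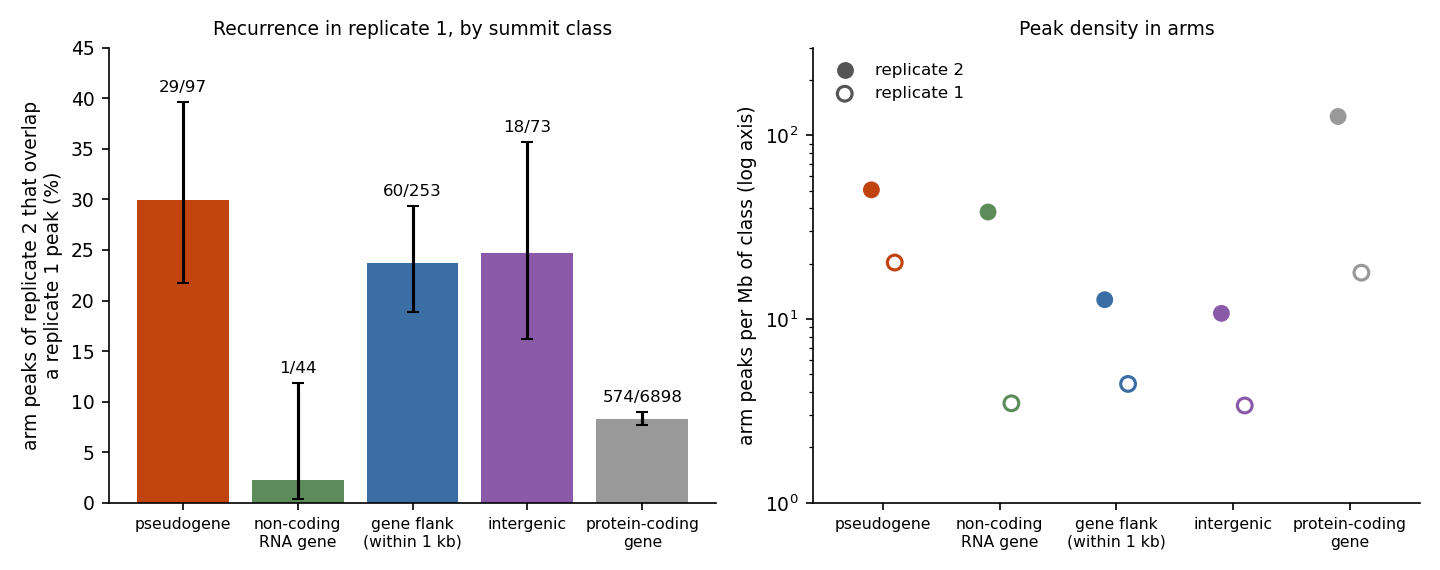
Left: bars give the percentage of replicate 2 arm peaks that overlap a replicate 1 peak, by the class of the summit, with 95% Wilson intervals and the counts above; pseudogenes reach 29.9%, non-coding RNA genes 2.27% and protein-coding genes 8.32%. Right: points give arm peaks per Mb of each class on a log axis, filled for replicate 2 and open for replicate 1, with pseudogenes at 50.5 and 20.3 and protein-coding genes at 127 and 17.9.

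By class, recurrence was 29.9% in pseudogenes (29 of 97, Wilson interval 21.7 to 39.6), 24.7% in intergenic space (18 of 73, 16.2 to 35.6) and 23.7% in flanks (60 of 253, 18.9 to 29.3), whose intervals overlap widely. In non-coding RNA genes 1 of 44 recurred (2.27%, 0.402 to 11.8), an interval below those of the other 3 classes and around the 8.32% of protein-coding genes. Differences between the classes were not tested.

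Both the width and the fold enrichment of a peak (the authors' linear ratio at the summit, comparable within a list) moved with recurrence. Among peaks wider than 1000 bp, 28 of 32 outside protein-coding genes recurred (87.5%, Wilson interval 71.9 to 95), against 151 of 499 in protein-coding genes (30.3%, 26.4 to 34.4). Among those of up to 300 bp it was 6 of 102 (5.88%, 2.72 to 12.2) against 40 of 1179 (3.39%, 2.50 to 4.59), with overlapping intervals. With a fold over 2.25, 36 of 47 recurred outside protein-coding genes (76.6%, 62.8 to 86.4), against 71 of 215 in them (33.0%, 27.1 to 39.6). At folds of up to 1.6 the shares were 1 of 51 (1.96%) and 61 of 1336 (4.57%), in the opposite order and with overlapping intervals. Compared within strata, the odds ratio was 4.19 over the 4 width strata (95% interval 3.26 to 5.40) and 2.67 over the 5 fold strata (2.07 to 3.43), by the Mantel-Haenszel method, chosen after the data were seen. The cuts of the strata were not planned either. In every width stratum, and in every fold stratum but the lowest, the share was higher outside protein-coding genes.

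**Figure D2:**
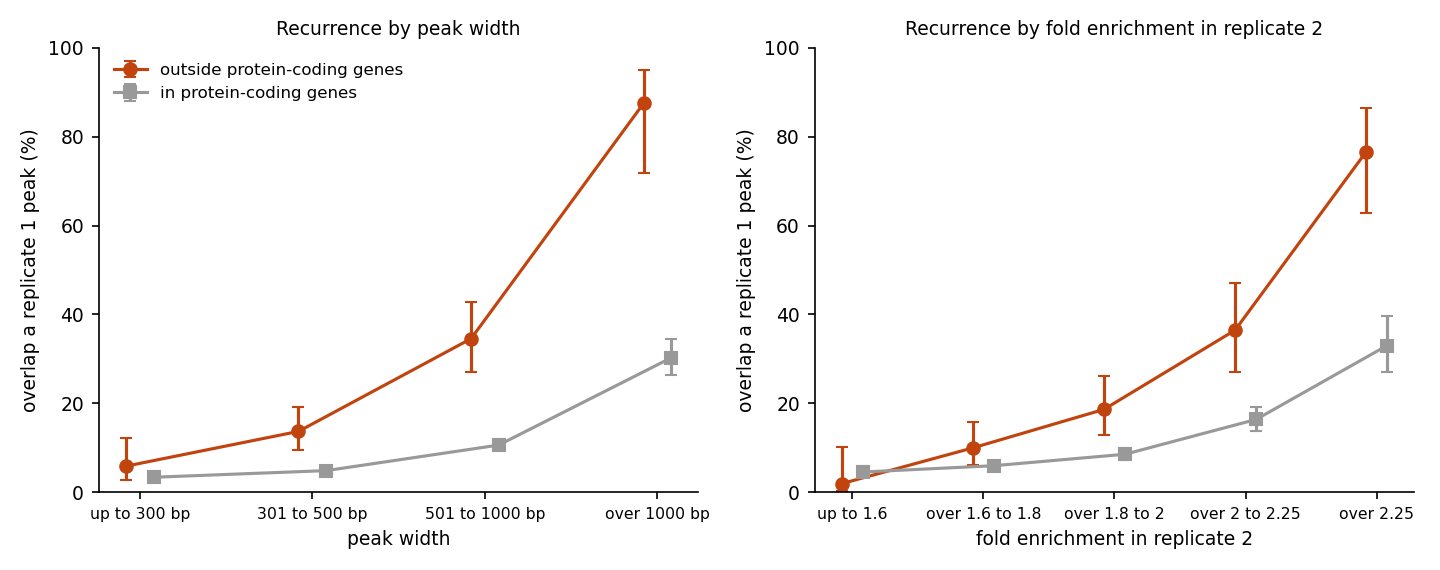
Percentage of replicate 2 arm peaks that overlap a replicate 1 peak, by peak width in bp (left) and by fold enrichment in replicate 2 (right), with 95% Wilson intervals; circles are peaks outside and squares peaks in protein-coding genes. The circles climb to 87.5% for widths over 1000 bp and 76.6% for folds over 2.25, and the squares to 30.3% and 33.0%.

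The 108 recurring regions overlapped 113 replicate 1 peaks, and where several overlapped a region the highest fold was taken. Over the 108 recurring regions the Spearman correlation of the folds in replicates 2 and 1 was 0.454, and over the 574 recurring peaks in protein-coding genes it was 0.0123; both describe peaks of the same 2 libraries and carry no test. The folds of the 108 ran between 1.47 and 3.6 in replicate 2 (median 2.08) and between 1.54 and 3.86 in replicate 1 (median 2.06), and were higher in replicate 2 in 59 of them. Those of the 574 ran between 1.46 and 3.06 in replicate 2 (median 1.86) and between 1.51 and 2.75 in replicate 1 (median 1.88), a narrower span. Depth and control are unknown, so folds of the 2 lists may not share a scale. The count of 59 and the medians set side by side describe the deposited values only. Of the 50 strongest regions outside protein-coding genes 38 recurred, against 26 of the 50 strongest in protein-coding genes. These sets end at unlike folds, as 47 regions and 215 protein-coding peaks had a fold over 2.25. The 50 regions are also a larger part of their group.

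**Figure D3:**
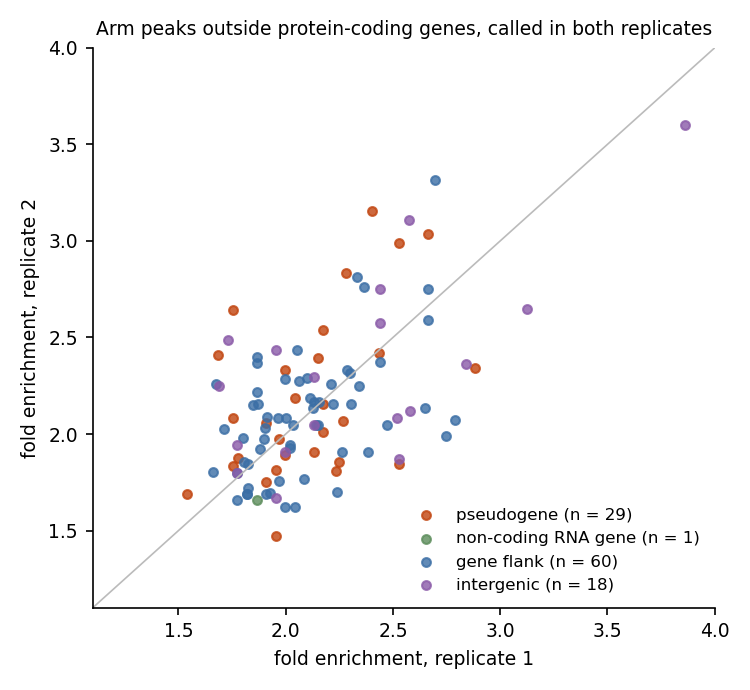
Fold enrichment in replicate 2 (vertical axis) against replicate 1 (horizontal axis) for the 108 arm peaks outside protein-coding genes that were called in both, coloured by class; the grey line marks equal folds. Points lie on both sides of the line, 59 of 108 above it, and the strongest is an intergenic region at 3.6 and 3.86. Folds of the 2 lists may not share a scale.

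As values of the list that gave them, the 467 regions had a median fold of 1.83 (SD 0.295, range 1.47 to 3.6), against 1.75 (SD 0.205, range 1.41 to 3.24) for arm peaks in protein-coding genes. Folds over 2.25 were held by 10.1% of the regions and by 3.12% of the protein-coding peaks. The 467 made up 6.34% of the arm peaks and 17 of the 50 strongest, of which 7 were flank, 5 pseudogene and 5 intergenic regions. By class the median fold was 1.84 in pseudogenes, 1.79 in non-coding RNA genes, 1.82 in flanks and 1.90 in intergenic space, and the highest fold of a non-coding RNA region was 2.15. Median widths were 543 bp in pseudogenes, 332.5 bp in non-coding RNA genes, 394 bp in flanks and 357 bp in intergenic space, against 437 bp in protein-coding genes. Pseudogene regions were the widest class, with 16.5% over 1000 bp, against 7.23% of the protein-coding peaks. They also held several summits most often, in 40.2%, against 26.7% of the protein-coding peaks.

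**Figure D4:**
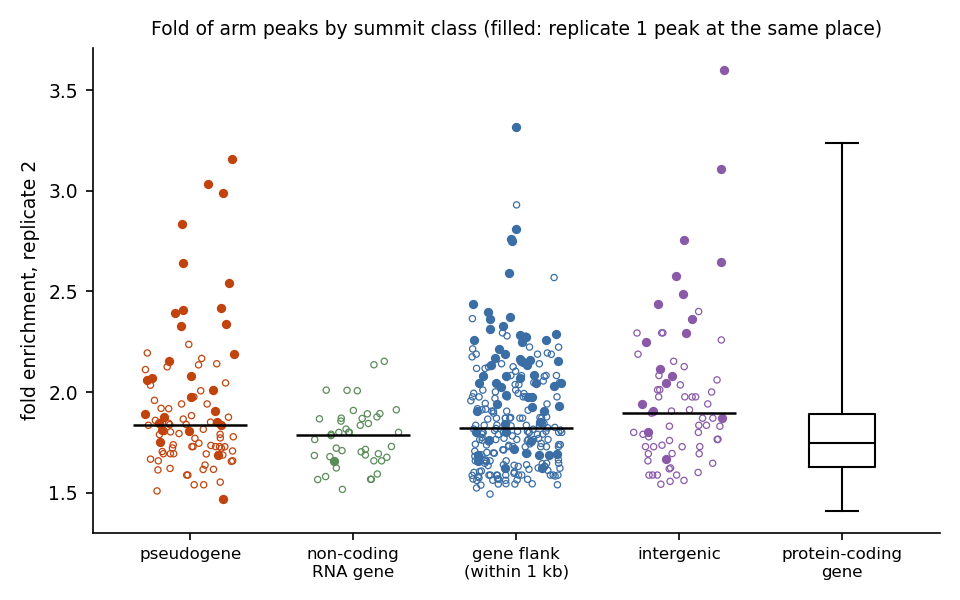
Fold enrichment in replicate 2 for each of the 467 arm peaks outside protein-coding genes, by class, with filled points where replicate 1 had a peak, open points where it had none, and a line at the median; the box gives the quartiles and the whiskers the range of the arm peaks in protein-coding genes. Above a fold of 2.25 the 11 pseudogene points are all filled, and the non-coding RNA points end at 2.15.

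Pseudogene regions lay in few of the annotated pseudogenes, and the strongest of them stood in both replicates. The 97 regions lay in 92 of the 1125 arm pseudogenes (8.18%), of which 5 held 2 regions each. Pseudogenes without a note of transcription held 62 of the regions, with 22 recurring, in 59 of 631 such arm genes (9.35%, median length 1881 bp). Transcribed pseudogenes held 35, with 7 recurring, in 33 of 494 (6.68%, median length 767 bp). The part of gene length in these counts was not tested. All 11 pseudogene regions with a fold over 2.25 recurred (Wilson interval 74.1 to 100), as did 18 of the 86 weaker ones (20.9%). The cut of 2.25 was not planned, and just below it a region with a fold of 2.24 had no replicate 1 peak.

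The strongest pseudogene region lay in the transcribed pseudogene AT1G05135 (chromosome 1, 1477613 to 1479148, TAIR10) with folds of 3.16 in replicate 2 and 2.40 in replicate 1, and its interval reached into a protein-coding gene. AT5G38037 (chromosome 5, 15183457 to 15184474) followed with 3.04 and 2.66. The widest of all 467 regions covered 4310 bp at AT3G10100 (chromosome 3, 3111181 to 3115490), with 2.99 and 2.53. AT1G20390 (chromosome 1, 7065555 to 7067589) had folds of 2.84 in replicate 2 and 2.28 in replicate 1 and held another region as well. AT1G17390 (chromosome 1, 5958679 to 5959594) had 2.64 and 1.75, and AT4G37570 (chromosome 4, 17655303 to 17655815) had 2.54 and 2.17. AT4G20730 (chromosome 4, 11117832 to 11120403) held a region of 2572 bp with folds of 2.34 in replicate 2 and 2.88 in replicate 1. Close by on chromosome 4, the 1980 bp region in AT4G20715 (11102739 to 11104718, named after its values were seen) had a fold of 2.24 and no replicate 1 peak. Its interval reached into a protein-coding gene.

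Regions in non-coding RNA genes were the narrowest of the 4 classes by their median, had a highest fold of 2.15, and had a replicate 1 peak at 1 of 44. They lay in 43 of the 4398 non-coding RNA genes of the arms (0.978%): 23 in genes annotated as lncRNA, 11 in those annotated as misc_RNA and 10 in those annotated as ncRNA. No region had its summit in any of the 250 microRNA, 250 snoRNA, 533 tRNA, 67 snRNA or 65 antisense RNA genes. The median length of these 5 gene types lies between 73 and 190 bp; the part of gene length in these counts was not tested. The 6 strongest were in AT3G03165 (chromosome 3, 5380299 to 5380770, fold 2.15), AT3G00430 (chromosome 3, 8751835 to 8752314, 2.14), AT3G54366 (chromosome 3, 20133063 to 20133567, 2.01), AT1G05517 (chromosome 1, 6941816 to 6942172, 2.01), AT1G08997 (chromosome 1, 25751336 to 25751831, 2.01) and AT4G06755 (chromosome 4, 9927017 to 9927312, 1.91). None of these 6 had a replicate 1 peak. The single recurring one, in the lncRNA gene AT3G09415 (chromosome 3, 22365659 to 22366160), was weak in both replicates, with folds of 1.66 in replicate 2 and 1.86 in replicate 1.

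The flank regions nearest to a gene had a lower share of recurrence than those farther out. With a summit up to 100 bp from the nearest gene 8 of 56 recurred (14.3%, Wilson interval 7.42 to 25.7), and at 500 to 1000 bp 32 of 104 did (30.8%, 22.7 to 40.2); the intervals overlap and the difference was not tested. The median fold was 1.76 in the nearest and 1.87 in the farthest of these. In 65 of the 253 the interval itself reached into a protein-coding gene, and 42 of these 65 had their summit within 100 bp of the nearest gene. At the border that the rule draws, 26 regions with a summit up to 50 bp outside a protein-coding gene had a median fold of 1.74, and 23 peaks with a summit up to 50 bp inside one had 1.76. Of these, 3 of 26 (11.5%, 4.00 to 29.0) and 2 of 23 (8.70%, 2.42 to 26.8) recurred, with overlapping intervals. Of all regions up to 250 bp from a protein-coding gene, 8 of 79 recurred (10.1%, 5.22 to 18.7). Farther out the share was 23.2 to 27.5%. These differences were not tested. The nearest gene was protein-coding for 198 of the 253, an lncRNA gene for 21 and a pseudogene for 19 (6 of them annotated as transcribed).

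The strongest flank region stood beside EMB2820 (AT5G24670, also TAD3, annotated as a tRNA adenosine deaminase; chromosome 5, 8446157 to 8446947) with folds of 3.32 in replicate 2 and 2.69 in replicate 1. The next, beside GulLO1 (AT1G32300, an L-gulonolactone oxidase gene; chromosome 1, 11650232 to 11650640), had a fold of 2.93 in replicate 2 and no replicate 1 peak, although it ranked 12 of 8608 in its list. Beside UMAMIT2 (AT4G19185, of a family of amino acid transporters; chromosome 4, 10490699 to 10492704) the folds were 2.81 and 2.33, and the region reached into a protein-coding gene. The others were beside AT1G74088 (chromosome 1, 27859586 to 27860674, 2.76 and 2.37), AT2G40420 (chromosome 2, 16876310 to 16878216, 2.75 and 2.66) and AT4G19510 (chromosome 4, 10632452 to 10634509, 2.59 and 2.66). The regions beside AT2G40420 and AT4G19510 also reached into a protein-coding gene. Of these 6 flank regions, 5 recurred.

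Among small RNA genes, a region stood beside each of 4 microRNA genes and none had a replicate 1 peak: MIR8172 (AT4G05925, fold 2.22), MIR830 (AT1G14071, 1.98), MIR2933b (AT3G07685, 1.8) and MIR858a (AT1G71002, 1.71), the last a precursor of a microRNA that targets MYB factor transcripts. Of 3 regions beside tRNA genes 1 recurred, a wide region of 1730 bp beside AT1G76000 (chromosome 1, 28526294 to 28528023) with a fold of 2.25 in replicate 2. This wide region reached into a protein-coding gene. A region beside U2.2, a gene for the U2 RNA of the spliceosome, had 1.84 and no replicate 1 peak.

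Within 1 kb of the flank summits stood 293 of the 22764 protein-coding genes of the arms (1.29%). Sets of these genes were read from symbols and synonyms that begin with a family's name, so each count is a minimum for the family: AP2/ERF genes with other names, such as ORA59 (beside a region with a fold of 1.77), DDF2 (1.81) and CRF2 (1.94), are not in it. Of the 14 sets of names, 5 had a gene there. WRKY names had 2 of 58. WRKY22 was the nearest gene of a region with a fold of 2.12 and no replicate 1 peak, and a region within 1 kb of WRKY7 had folds of 2.14 in replicate 2 and 2.65 in replicate 1. The AP2/ERF names had 1 of 49 (RAP2.10, beside a region with a fold of 1.98), NAC names 1 of 87 (TIP, 1.81), photosynthesis names 1 of 48 (PSAL, a photosystem I subunit, 2.29) and expansin or XTH names 1 of 62 (AT4G30380, 1.74), and these regions had no replicate 1 peak. The other 9 sets had none: MYB (0 of 113), MADS (0 of 78), CLE, RALF and PIP names, the last also taking in aquaporins (0 of 77), RPL and RPS names of ribosomal proteins (0 of 52), heat shock (0 of 46), arabinogalactan (0 of 43), BBX and CONSTANS-like (0 of 27), histones (0 of 27) and bHLH (0 of 21). A ribosomal protein gene named otherwise, emb2171 (AT3G04400), stood beside a region with folds of 2.29 in replicate 2 and 2.1 in replicate 1. ORA59, DDF2, CRF2 and emb2171 were named after their values were seen, and nothing is read from the counts of 0.

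Intergenic regions were few, but held the strongest region of the list. Their summits lay between 1022 and 5323 bp from the nearest gene (median 1533). The strongest, whose nearest gene is AT1G68490 (chromosome 1, 25696672 to 25698356), had folds of 3.6 in replicate 2 and 3.86 in replicate 1. One nearest to Tudor2 (AT5G61780, a TUDOR-SN RNA-binding protein gene; chromosome 5, 24818860 to 24819907) had 3.11 and 2.57. Near AT3G50320 (chromosome 3, 18652423 to 18652883) the folds were 2.75 and 2.44. Near AT1G22600 (chromosome 1, 7985518 to 7986054) they were 2.65 in replicate 2 and 3.12 in replicate 1. AT1G17410 (chromosome 1, 5965744 to 5966694, 2.58 and 2.44) and AT1G31840 (chromosome 1, 11427567 to 11428076, 2.49 and 1.73) were the nearest genes of the other two. These 6 all recurred, and 4 of them lay on chromosome 1. Of the 14 intergenic regions over a fold of 2.25, 9 recurred (64.3%, Wilson interval 38.8 to 83.7), and of the 59 weaker ones 9 did (15.3%, 8.24 to 26.5).

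Some regions stood in runs. Joined across gaps of up to 20 kb, 64 of the 467 formed 18 runs of 3 or more, and 28 of these 64 recurred (43.8%, Wilson interval 32.3 to 55.9), against 80 of the 403 others (19.9%, 16.2 to 24.0). Regions of a run can share a replicate 1 peak, so these counts are not independent, and the difference was not tested. No such count is given for the other arm peaks, so the number of runs is a description only. Of the 4 runs of 5 regions, 1 on chromosome 5 (4788038 to 4800798) held 2 regions in the transcribed pseudogene AT5G14840, with folds of 1.88 and 1.84 in replicate 2 and 1.78 and 1.76 in replicate 1. A region in the pseudogene AT5G14830 (1.91 in replicate 2, 2.13 in replicate 1) and another beside it (2.17 and 2.13) also belonged to this run, and both overlapped the same replicate 1 peak. The region beside AT5G14830 reached into a protein-coding gene. The remaining one, beside P5CR (the enzyme gene of the last step of proline synthesis), had 1.6 and no replicate 1 peak. A run on chromosome 3 (1959171 to 1972463) took in the transcribed pseudogenes AT3G06433, with 2 regions, and AT3G06437 (2.07 in replicate 2, 2.27 in replicate 1); its 3 pseudogene regions recurred and its 2 flank regions did not. Another on chromosome 3 (22364756 to 22372919) spanned the lncRNA genes AT3G09415, AT3G09435 and AT3G09445 up to the flank of GATA4, a transcription factor gene, with folds between 1.62 and 2.57 and 2 of 5 recurring. The run on chromosome 5 (19789185 to 19830361) around ATSDI1, a sulphur deficiency-induced gene, had folds between 1.76 and 2.01 and none recurring.

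None of the 467 regions overlapped or came within 1 kb of a GBPL3-GFP peak in either replicate. The upper limit of the share was 0.642% (3 of 467), a counting limit that takes the regions as independent. The GBPL3 lists held 16 arm peaks in replicate 2 and 10 in replicate 1, so few overlaps were possible, and of the 6898 protein-coding arm peaks only 4 and 3 overlapped one.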

How the data were processed

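The deposited files used here are 4 peak lists, 1 for each pulldown, so peaks were called per sample. BWA 0.7.12, MACS2 2.1.0 and the build TAIR10 are named per the submitters' processing notes, while calling options and the control are not stated in the labels used here. Per the deposited values, column 7 holds the fold enrichment (a linear ratio), columns 8 and 9 the −log10 p and −log10 q, column 5 the authors' score (column 9 times 10, cut to a whole number) and column 10 the summit offset. Read depth is unknown, and the number of peaks can move with it: the H2B lists held 8608 nuclear peaks in replicate 2 and 1361 in replicate 1. The lowest −log10 q of the deposited H2B lists was 1.30.

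Lines sharing a start and an end counted as 1 interval, which took the highest fold among them and the summit of the line with the top −log10 q. The approximate centromere midpoints were 15.1, 3.6, 13.7, 4.0 and 11.7 Mb on chromosomes 1 to 5, and a chromosome's end was the last position a gene or peak reached. Genes (37887 nuclear) and their types were read in RefSeq's annotation of TAIR10.1; only names and neighbours are printed, and strand and exons were not used here. The fit was checked: 91.2 to 93.5% of replicate 2 summits per chromosome lay in protein-coding genes, and 62.2 to 66.0% after a shift of 20 kb. Classes were assigned in the order protein-coding gene, pseudogene, non-coding RNA gene, flank, intergenic. No genome sequence was used here, so an intergenic region may hold an unannotated transposable element. Positions are the authors', counted from 1.

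The 95% Wilson intervals of the shares reflect counting error alone. For recurrence, a 2-sided Fisher's exact test gave the p and the conditional odds ratio (scipy 1.17.1) and, chosen after seeing the data, the Mantel-Haenszel method the odds ratio within strata (statsmodels 0.14.6). The overlap and class steps were checked on made-up intervals with known answers. The rule for named regions took the 6 strongest of each class, the 10 with the highest mean fold, the 5 widest, recurring non-coding RNA regions, those in microRNA genes, those with a GBPL3 peak, and runs; others are given as members of a fixed family or gene type. Members, families and rules were chosen with earlier results of these data known.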

Additional observations from a re-analysis of the deposited data

How the results depend on the processing

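The higher recurrence outside protein-coding genes kept its direction under all 10 planned and 3 added alternatives that bear on it. Each Fisher or Mantel-Haenszel p was below 0.05, but describes these 2 libraries only. With regions from replicate 2 the odds ratio ran between 2.67 (fold strata) and 5.76 (reciprocal overlap of 50%). With regions from replicate 1 it was 2.05, the comparison already given from the other list. That setting still counts overlap with replicate 2 peaks, so it does not leave replicate 2 out. The share recurring moved between 16.3% (reciprocal overlap of 50%) and 27.9% (replicate 2 peaks with a −log10 q of at least 2). The number of regions ran between 359 and 526 over the other thresholds and margins, and was 154 with regions from replicate 1. Among these replicate 1 regions the pseudogene share was 25.3% and the non-coding RNA share 2.60%. The flank share was 47.8% when whole intervals had to lie outside protein-coding genes. With a flank of 500 bp, 31.9% were flank and 37.9% intergenic regions, and with 2 kb 64.9% and 4.93%, by construction. No paired analysis was possible because each region has a single value per list and the regions come from 1 list. Depth is unknown, so a missing replicate 1 peak does not show that enrichment is absent there.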
